A study of Mus musculus with 32 samples.

Results

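The comparison described here sets 4 midbrain (Mb) libraries from mouse embryos that lacked 3 type II cadherins against 6 Mb libraries from wild-type (WT) embryos. These 10 libraries were chosen by their column headings out of 32 in the series, all from embryonic day 9.5. The mutant embryos (TKO), as labelled, carried frameshift deletions in Cdh6, Cdh8 and Cdh11 together, on a B6C3F1 background, descended from a single founder. The study's methods class them as exencephalic, with an open and everted cranial neural tube, and state that genotypes were read by PCR on the yolk sac. The WT embryos were of the same background and came from WT matings, whereas TKO came from matings of triple heterozygotes, so the groups were not littermates. No further treatment is given for either group, and the age is shared by both.

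Type II cadherins are adhesion molecules that join cells through calcium-dependent contacts of their outer domains, and neighbouring brain compartments carry different members. In the Mb of this age, neural progenitors line an almost closed tube. Fgf8 from the isthmus, at its boundary with the hindbrain, sustains Engrailed genes, while Shh below and Wnt and Bmp signals above set the ventral and dorsal fates. Cranial mesenchyme, neural crest, vessels, blood and surface ectoderm lie around the tube and can enter a dissected piece.

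RNA was measured as fragments per kilobase of exon and per 1e6 mapped fragments (FPKM). Genes whose average across the 10 libraries reached 1 FPKM were tested with limma on log2(FPKM + 1), a scale that understates the change of low genes. A gene is said to have risen or fallen where its Benjamini-Hochberg adjusted p was under 0.05. For gene lists, members with an unadjusted p under 0.05 are counted as higher or lower, beside the share of all genes that met the same condition. The depth, estimated from the step between low values, in units of 1e6 fragments, was 2.375 to 2.925 in WT and 1.94 to 2.32 in TKO. By this approximate estimate every TKO library was shallower than every WT library, but the gap between 2.32 and 2.375 is narrow. The part of this difference in the results below was not tested. Spearman correlations across genes were 0.925 to 0.947 within WT, 0.930 to 0.934 within TKO and 0.920 to 0.939 between the groups. Y-linked RNA was present in 3 WT libraries and 1 TKO library. Nothing in the labels states separate litters, so the p-values measure the spread between these libraries. Differences in a dissected piece also cannot separate fewer cells of a type from less RNA per cell.

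Of 13361 genes tested, 12 passed the adjusted threshold (0.0898%), and all 12 rose in TKO. The study's own DESeq2 test of read counts, at an adjusted p under 0.05, selected more transcripts between WT and TKO Mb. Because that test used counts and the limma fit here used FPKM, the numbers of genes are not alike. At an unadjusted p under 0.05, 692 genes were higher (5.18%) and 428 were lower (3.20%). With quantile normalization that split was 603 higher and 596 lower. Non-overlapping levels, with all 4 TKO libraries above all 6 WT libraries, were seen for 162 genes (1.21%), and levels below all WT libraries for 70 (0.524%). The median log2 fold change of all tested genes was 0.02. Without TKO replicate 3, 9 genes passed (0.0674%), 7 higher and 2 lower, and 5 of them were among the 12. At the unadjusted threshold 567 genes (4.24%) were then higher and 415 (3.11%) lower. Leaving out WT replicate 1 gave 52 genes, 43 higher and 9 lower, which included the same 12. Leaving out WT replicate 5, whose regional markers differed, gave 6 genes (0.0449%), with 589 (4.41%) higher and 376 (2.82%) lower at the unadjusted threshold. Each of the other WT or TKO libraries, left out in turn, gave 4 to 11 genes.

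Among the 12 risen genes, 8 were pseudogenes, copies of other genes, most often made from a spliced transcript. The other 4 were Tecr, Usp50, mt-Nd1 and mt-Atp8. Since short reads from a pseudogene and its parent can be near-identical, the copy and the closest protein-coding transcript are given for 4 pairs, chosen because they cover the largest rises and the mitochondrial case. Each pair is 60 bases long, and capitals mark the bases that differ. The pseudogene windows lie on GRCm38 at chr17:77674498-77674557 (minus strand), chr13:108670803-108670862 (plus strand), chr12:57632734-57632793 (minus strand) and chr2:22589129-22589188 (minus strand), in the order of the pairs, and the parent windows come from GENCODE transcripts.
Gm17538: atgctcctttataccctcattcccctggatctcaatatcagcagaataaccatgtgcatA
Usp9x: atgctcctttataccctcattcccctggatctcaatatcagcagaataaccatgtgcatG
Rps3a3: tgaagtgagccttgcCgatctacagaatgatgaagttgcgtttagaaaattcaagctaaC
Rps3a1: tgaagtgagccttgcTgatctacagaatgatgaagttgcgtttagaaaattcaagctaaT
Rpl26-ps2: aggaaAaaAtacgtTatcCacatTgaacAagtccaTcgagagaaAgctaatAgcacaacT
Rpl26: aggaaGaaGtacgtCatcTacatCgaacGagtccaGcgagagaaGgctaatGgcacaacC
Gm13340: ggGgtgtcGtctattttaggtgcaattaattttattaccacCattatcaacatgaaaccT
mt-Co1: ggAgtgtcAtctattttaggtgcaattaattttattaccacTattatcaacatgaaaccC

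The largest rise was that of Gm17538, a processed pseudogene with 1 mismatch to Usp9x over 324 aligned bases. It was listed at 0 in all 6 WT libraries and at 6.66, 5.80, 7.36 and 11.4 FPKM in TKO replicates 1 to 4 (limma, adjusted p = 9.61e-05). Usp9x, an X-linked deubiquitinase, was at 24.4 ± 2.28 FPKM in WT (SD, n = 6) and 24.3 ± 0.578 FPKM in TKO (SD, n = 4). Rpl26-ps2, 93.1% identical to its parent, was also listed at 0 in WT and stood at 2.89, 5.12, 6.29 and 2.49 FPKM in TKO (adjusted p = 0.0056). Its parent Rpl26 encodes a protein of the large ribosomal subunit and had a log2 fold change of 0.23.

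Rps3a3 had the lowest adjusted p among the copies detected in both groups. Its FPKM ranged from 174 to 270.3 in WT, with a median of 215, and was 535, 548, 541 and 678 in TKO. The groups did not overlap, and the log2 fold change was 1.40 (SE 0.11, adjusted p = 0.00055). Rps3a1, the parent at 98.9% identity and a small-subunit protein gene, moved the other way in its means, 56.0 ± 8.40 FPKM in WT (SD, n = 6) and 49.1 ± 12.3 FPKM in TKO (SD, n = 4), with overlapping groups. Rps3a3 overlaps Pde4d, a phosphodiesterase gene, on the same strand, and Pde4d was at 0.492 to 1.18 FPKM in WT and 0.776 to 1.93 FPKM in TKO.

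A similar contrast was seen for Rps25-ps1. It stood at 318 to 521 FPKM in WT and 932, 985, 713 and 910.4 FPKM in TKO (log2 fold change 1.05, adjusted p = 0.0230), whereas Rps25 was at 291 to 531 FPKM in WT and 232, 265, 373 and 252 FPKM in TKO (log2 fold change -0.39, adjusted p = 0.596). Rpl31-ps9, Rpl19-ps1 and Gm15464, whose closest genes are Rpl31, Rpl19 and Rps23, rose by log2 fold changes of 0.84, 0.90 and 1.10, while those 3 parents differed by 0.17, 0.10 and 0.14. Of the 8 risen pseudogenes, 6 were closest to a ribosomal protein gene, beside 269 of all 947 pseudogenes tested. In the paired plot of pseudogenes and parents, the groups separated in the copies and overlapped in every ribosomal parent. The copies were chosen for their adjusted p in these same libraries and the parents were not, so this contrast follows in part from the choice.

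**Figure D1:**
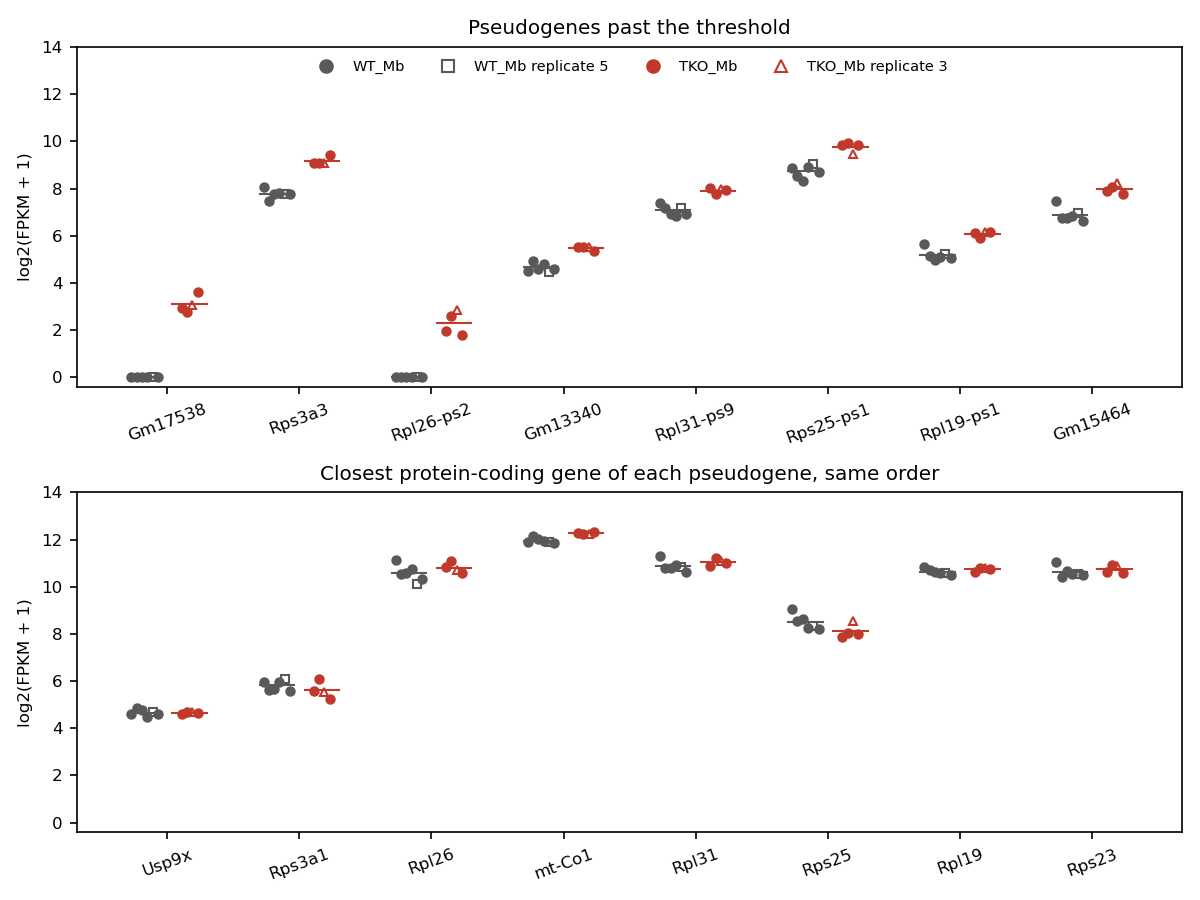
The upper panel plots log2(FPKM + 1) of the 8 risen pseudogenes in each library, and the lower panel plots the closest protein-coding gene of each in the same order. Grey marks are WT (n = 6) and red marks TKO (n = 4), horizontal lines are group means, the open square is WT replicate 5 and the open triangle TKO replicate 3. All 4 TKO marks lie above all 6 WT marks for every pseudogene, and the pseudogenes were chosen for their adjusted p in these libraries.

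Pseudogenes as a class were then counted. Of 947 tested, 192 were higher (20.3%) and 34 lower (3.59%), beside 5.18% and 3.20% of all genes, with a median log2 fold change of 0.21. When TKO replicate 3 was left out, 158 of 934 were higher and 38 lower. By closest gene, 83 of 269 pseudogenes of ribosomal protein genes were higher and 12 lower, and 94 of 612 of other nuclear genes were higher and 20 lower. For the 12 nuclear copies of mitochondrial genes it was 10 higher and 0 lower. Among them, Gm28661 and Gm28439 match mt-Co2 and mt-Nd4 over their whole length without a mismatch, so reads cannot tell them apart. Their log2 fold changes were 0.37 and 0.47, beside 0.37 and 0.48 for those genes. The count of these copies is therefore not separate from that of the mitochondrial genes. The 54 pseudogenes with no match over at least 50% of their length had 5 higher and 2 lower. Protein-coding genes, in contrast, had 469 higher (4.05%) and 365 lower (3.15%) of 11573. Not every copy went up: Rpl3-ps1 had a log2 fold change of -1.70 (adjusted p = 0.143), a gene named after its values were seen. A value for a pseudogene depends on how Cufflinks divided reads between copies, and the part of that division was not tested.

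The mitochondrial genome encodes 13 respiratory chain subunits, and all 13 were higher in TKO at the unadjusted threshold, with a median log2 fold change of 0.48. For 12 of the 13, all TKO libraries lay above all WT libraries. mt-Nd1, a core subunit of complex I, was at 3317 to 4111 FPKM in WT and at 5252, 5487, 5792 and 5063 FPKM in TKO (log2 fold change 0.55, SE 0.07, adjusted p = 0.0230). mt-Atp8, a subunit of the ATP synthase, was at 5208 to 8152 FPKM in WT and 12116, 11630, 11210 and 13347 FPKM in TKO (log2 fold change 0.93, adjusted p = 0.0233). mt-Atp8 overlaps mt-Atp6, which had a log2 fold change of 0.39. The mt-Nd3 values, 2293 to 4236 FPKM in WT and 4683, 4551, 5556 and 4071 FPKM in TKO, were the only ones of the 13 that overlapped. The cytochrome oxidase genes mt-Co1, mt-Co2 and mt-Co3 differed least, by 0.32, 0.37 and 0.27 on the log2 scale.

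The 2 mitochondrial ribosomal RNAs did not show this shift. mt-Rnr1 was at 978 to 2392 FPKM in WT and 1696, 1305, 909 and 1404 FPKM in TKO, and mt-Rnr2 had a log2 fold change of -0.06. Expressed as a share of mapped fragments, the 13 coding genes took 2.60% to 3.15% in WT and 3.75%, 4.0%, 4.02% and 4.06% in TKO. The 13 genes were all still higher without TKO replicate 3 at the unadjusted threshold and had a median of 0.46, but none passed the adjusted one. Of the 10 fits that each left out 1 library, 3 had a mitochondrial gene past the adjusted threshold, those without WT replicates 1, 2 and 5. Under quantile normalization 7 of the 13 were higher and the median was 0.28. In the libraries without Y-linked RNA (3 WT and 3 TKO), the mean log2(FPKM + 1) of the 13 genes was 11.005 to 11.16 in WT and 11.60 to 11.72 in TKO.

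**Figure D2:**
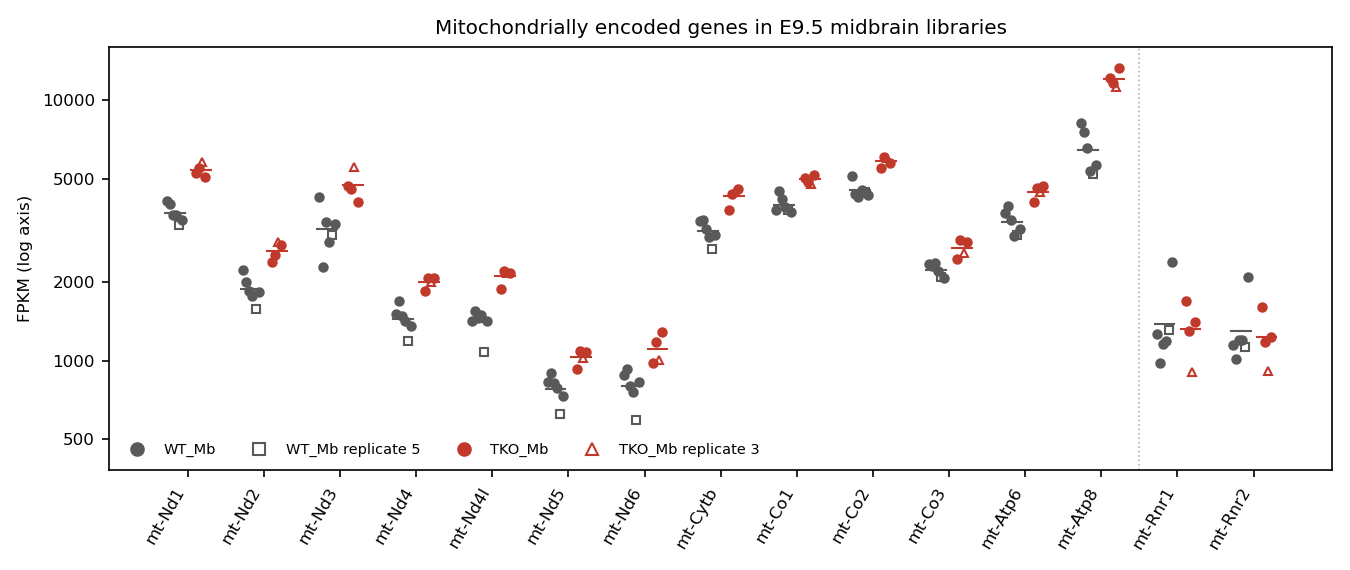
FPKM on a log axis is plotted for the 13 mitochondrial protein-coding genes and, right of the dotted line, the 2 ribosomal RNAs. Grey marks are WT libraries (n = 6), red marks TKO libraries (n = 4) and lines group means, with WT replicate 5 as an open square and TKO replicate 3 as an open triangle. The groups are apart in 12 of the 13 coding genes and overlap in mt-Nd3, mt-Rnr1 and mt-Rnr2.

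Nuclear genes that encode the rest of the respiratory chain moved far less. Of 88 tested, 14 were higher (15.9%) and 1 was lower (1.14%), beside 5.18% and 3.20% of all genes. The median log2 fold change was 0.09. The counts were 8 and 1 without TKO replicate 3, and 10 and 1 without WT replicate 5. None of these genes passed the adjusted threshold. Uqcrb, of complex III, was at 226 to 342 FPKM in WT and 399, 390, 422 and 306 FPKM in TKO (log2 fold change 0.48, adjusted p = 0.302), and Cox8a, of complex IV, at 375 to 547 and 612, 573, 686 and 571 FPKM (0.36, adjusted p = 0.316). Cytosolic ribosomal protein genes had 8 higher (9.76%) and 1 lower (1.22%) of 82 and a median of 0.10. The count became 3 higher and 1 lower without TKO replicate 3, and 6 higher and 2 lower without WT replicate 5. Histone genes had 2 higher (4.17%) and 5 lower (10.4%) of 48. They had 1 higher and 3 lower of 49 without TKO replicate 3, which had the lowest mean of the list. Hist1h4k, a replication-dependent H4 gene, was at 29.8 to 52.9 FPKM in WT and 15.6, 27.1, 8.64 and 13.3 FPKM in TKO (log2 fold change -1.30, adjusted p = 0.120). Most histone transcripts lack a poly(A) tail, so their level depends on the library method.

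Higher counts were more frequent in short genes. Among nuclear protein-coding genes, 8.33% of 276 genes under 1000 bp of exons were higher and 4.35% lower. Of 6712 genes of at least 4000 bp, 3.04% were higher and 3.01% lower. Without ribosomal protein and respiratory chain genes the share of short genes that were higher was 6.97%. Pseudogenes and mitochondrial genes are short as well, and the part of gene length in their values was not tested.

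Tecr, the enoyl reductase that completes each cycle of very-long-chain fatty acid elongation, was at 136 to 186 FPKM in WT and 337, 302, 246 and 283 FPKM in TKO. The groups did not overlap (log2 fold change 0.92, SE 0.11, adjusted p = 0.0134), and the rise also passed without TKO replicate 3 (1.0, adjusted p = 0.00868). Tecr lies at chr8:83571698-83607971 on GRCm38, within 20 Mb of both Cdh8 and Cdh11, and overlaps Gm45823 on the same strand. In the elongation pathway, 2 of 10 genes were higher (20%, beside 5.18% of all genes) and none lower. The other was Hacd1, a dehydratase of the same cycle (0.35, adjusted p = 0.583). Tecr alone remained higher without TKO replicate 3, where Hacd1 had an unadjusted limma p of 0.113, and Hacd1 had 0.0752 without WT replicate 5. Usp50, a member of the ubiquitin-specific protease family, was at 36.8 to 62.4 FPKM in WT and 93.7, 79.9, 108 and 80.4 FPKM in TKO (1.0, adjusted p = 0.0256), and it overlaps the pseudogene Gm10774 on the same strand. Without TKO replicate 3 its adjusted p was 0.0967.

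Genes around the targeted loci were counted separately, since mutant chromosomes come from 1 founder. Of the autosomes and X, chromosome 1, which holds no target, had the largest share higher, 83 of 888 (9.35%), with 32 lower (3.60%). Rpl31-ps9, Rpl19-ps1 and Gm15464 lie on it, as do Gm28661 and Gm28439, the copies of mt-Co2 and mt-Nd4. A chromosome count includes pseudogenes, of which 20.3% were higher over all chromosomes. The chromosome 1 count is therefore not separate from the pseudogene count, and how many of the 83 were pseudogenes is not given here. Chromosome 8 had 44 of 646 higher (6.81%) and 28 lower (4.33%). Without TKO replicate 3, chromosome 1 had 66 of 880 higher (7.50%) and chromosome 8 had 50 of 646 (7.74%). The causes were not tested. Within 20 Mb of Cdh8, 15 of 271 genes were higher (5.54%) and 9 lower (3.32%), beside 5.18% and 3.20% of all genes. Within 20 Mb of Cdh11, 15 of 267 were higher (5.62%) and 12 lower (4.49%). Within 20 Mb of Cdh6, 2 of 54 were higher (3.70%) and 1 lower (1.85%). The first and second windows overlap, and Tecr was the 1 gene in them that passed the adjusted threshold. Without TKO replicate 3 the counts near Cdh8 were 21 higher (7.75%) and 13 lower (4.80%). Near Cdh11 they were 21 higher (7.87%) and 16 lower (5.99%), beside 4.24% and 3.11% of all genes. Near Cdh6 they were 3 higher (5.56%) and 1 lower (1.85%).

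None of the 3 targeted cadherins passed the adjusted threshold. A frameshift deletion leaves most of the transcript in place, so the level of RNA does not check the genotype. Cdh11 (chr8:102632095-102785642), found in mesenchyme and crest, was at 17.9 to 28.7 FPKM in WT and 16.4, 14.5, 16.2 and 16.6 FPKM in TKO, without overlap (log2 fold change -0.42, adjusted p = 0.356). Cdh8 (chr8:99024471-99416471) was at 1.14 to 10.1 FPKM in WT and 1.19, 0.851, 1.59 and 2.32 FPKM in TKO (-1.12, adjusted p = 0.464), and WT replicate 1 held the lowest WT value. Cdh6 (chr15:13028701-13173675) was at 1.04 to 3.55 FPKM in WT and 0.388, 0.353, 3.10 and 0.345 FPKM in TKO. The library labelled TKO replicate 3 therefore lay within the WT range for Cdh6, and whether its genotype or dissection differed was not tested. For Cdh6, the log2 fold change was -0.90 (adjusted p = 0.547) with it and -1.30 (adjusted p = 0.233) without it. Of 7 type II cadherins tested, these 3 were lower (42.9%, beside 3.20% of all genes) and the other 4 were not. The 3 are the targeted genes themselves. Without WT replicate 5, 2 were lower, and Cdh6 had an unadjusted limma p of 0.057. Cdh20 and the vascular Cdh5 had log2 fold changes of 0.41 and 0.07.

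Replicate 3 also stood apart from the other TKO libraries in genes other than Cdh6. Gm26825, a long non-coding RNA on chromosome 5, was at 7.92 to 19.3 FPKM in WT, at 0.262, 0.238 and 0.464 FPKM in TKO replicates 1, 2 and 4, and at 8.36 FPKM in replicate 3. It fell only when replicate 3 was left out (log2 fold change -3.40, adjusted p = 0.00082). Gm14017, a pseudogene on chromosome 2, was listed at 0 in WT and in replicate 3 and at 4.03, 3.55 and 3.46 FPKM in the other TKO libraries. The antisense gene 1810041H14Rik on chromosome 14 showed the same arrangement, with 2.95, 2.91 and 4.41 FPKM. AC149090.1, which lies on an unplaced scaffold, was at 8.73 to 24.2 FPKM in WT, 4.10, 4.06 and 3.42 FPKM in replicates 1, 2 and 4, and 11.9 FPKM in replicate 3. It fell only without replicate 3 (adjusted p = 0.0417). Gm26825, Gm14017 and 1810041H14Rik were named because they passed the threshold without replicate 3. Counted over all tested genes, replicate 3 lay within the WT range while the other 3 TKO libraries lay outside it on one side for 195 genes. The same count was 186 for replicate 1, 198 for replicate 2 and 287 for replicate 4, so by this measure replicate 3 was not the one most often apart.

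**Figure D3:**
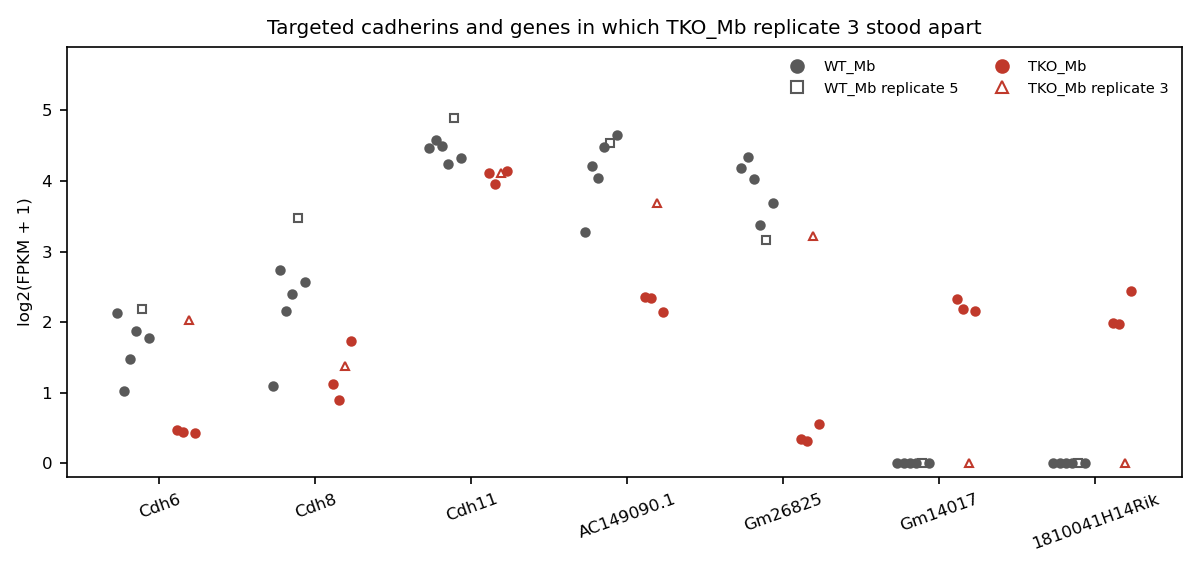
Log2(FPKM + 1) is plotted for the targeted cadherins and for 4 genes in which TKO replicate 3 stood apart, with grey WT marks (n = 6) and red TKO marks (n = 4). The open triangle, TKO replicate 3, lies among or near the WT marks for Cdh6, AC149090.1, Gm26825, Gm14017 and 1810041H14Rik, and among the other TKO marks for Cdh8 and Cdh11.

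The regional identity of the tissue was read from marker lists. The Mb and isthmus list included En1 and En2, the Engrailed factors of this region, and all 15 genes were tested. Meis2 and Fgf17 were higher (13.3%, beside 5.18% of all genes), none was lower, and the median log2 fold change was 0.69. That median fell to 0.13 without WT replicate 5, and was 0.55 without TKO replicate 3. In WT replicate 5 En1 was at 3.57 FPKM against 32.0 to 59.0 FPKM in the other WT libraries, and Fgf8 and Fgf17 were listed at 0. Pax6, a forebrain marker, was at 52.7 FPKM in the same library, but also at 45.9 FPKM in WT replicate 3 and 28.7 FPKM in TKO replicate 4, against 5.15 to 18.3 FPKM in the others. The TKO libraries had En1 at 49.0, 42.6, 65.5 and 43.0 FPKM, within the range of the other WT libraries or just above it. Meis2, a homeobox gene, was at 20.9 to 35.8 FPKM in WT and 37.8, 79.1, 23.2 and 82.4 FPKM in TKO (log2 fold change 0.86, adjusted p = 0.511). Otx2, needed for fore- and midbrain identity, was at 63.3 to 171 FPKM in WT and 83.5, 59.8, 92.6 and 112 FPKM in TKO. Forebrain genes had 1 of 7 higher, Sp8 (0.37, adjusted p = 0.586), and 0 lower, and none of the 7 was higher without TKO replicate 3 or without WT replicate 5. Hindbrain genes had 0 of 3 in either direction.

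Along the dorsoventral axis, 0 of 19 dorsal genes were higher and 1 was lower (5.26%, beside 3.20% of all genes). Leaving out TKO replicate 3 gave 2 lower, and leaving out WT replicate 5 gave 0. Of 11 ventral genes 2 were higher (18.2%, beside 5.18% of all genes) and none lower. Only 1 was higher without TKO replicate 3, and without WT replicate 5 none was higher and 1 was lower. Wnt1 (log2 fold change 0.00), Wnt3a (0.12) and Pax7 (0.15) of the dorsal tube had adjusted p-values from 0.915 to 0.997. Of the floor plate genes, Shh was at 7.86 to 17.5 FPKM in WT and 8.88, 10.4, 16.4 and 25.4 FPKM in TKO, and Foxa2 had a log2 fold change of 0.15. Foxa1, a partner of Foxa2, had 0.47 (adjusted p = 0.586).

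Fgf15, the secreted Fgf of the neural tube, was at 25.5 to 37.4 FPKM in WT and 58.5, 46.0, 53.2 and 39.6 FPKM in TKO. The groups did not overlap, although the log2 fold change of 0.71 (SE 0.15) had an adjusted p of 0.143. The study picked Fgf15 on these samples, at an FDR under 0.05 in its own DESeq2 test of read counts, so its direction here is not independent evidence. By in situ hybridization the study also reported more Fgf15 RNA in the open Mb of E9.5 embryos without Cdh8 and Cdh11. Fgf17, which is made at the isthmus with Fgf8, was at 0 to 20.3 FPKM in WT and 19.2, 19.2, 17.0 and 19 FPKM in TKO (1.56, adjusted p = 0.586; 1.01 without WT replicate 5). In all, 2 of 6 Fgf ligands were higher (33.3%, beside 5.18% of all genes), 1 without TKO replicate 3 and 3 without WT replicate 5. Of 16 feedback and target genes of the pathway, 0 were higher and the receptor Fgfr3 was lower (-0.59, adjusted p = 0.591). Fgfr3 did not pass the unadjusted threshold without TKO replicate 3 (log2 fold change -0.38) or without WT replicate 5 (-0.48), and in the latter fit 1 other gene of the list was higher. The difference between the lists was not tested.

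In the other signalling lists at most 2 genes passed the unadjusted threshold. Wnt targets had 1 of 13 higher (7.69%), the cyclin Ccnd1 (0.30, adjusted p = 0.312), and 1 lower, the feedback inhibitor Axin2 (-0.36, adjusted p = 0.435). In the Hedgehog list the co-receptor Gas1 was lower, at 42.1 to 58.1 FPKM in WT and 33.3, 38.0, 38.0 and 40.3 FPKM in TKO (-0.37, adjusted p = 0.299), and 11 of 12 genes were not (8.33% lower, beside 3.20% of all genes). Bmp genes had 1 of 20 higher, the inhibitor Id4, and 0 without WT replicate 5, and Notch genes 1 of 19 lower, the ubiquitin ligase Mib1. Retinoic acid genes had 0 of 9 in either direction. Hippo genes and Yap targets had 2 of 21 lower (9.52%) and 0 higher, also without TKO replicate 3, namely Ccn2, a matricellular protein (-0.74, adjusted p = 0.366), and the angiomotin family gene Amotl2 (-0.27, adjusted p = 0.366). The p53 targets had 1 of 20 higher, the BH3-only gene Pmaip1 (0.60, adjusted p = 0.502).

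**Figure D4:**
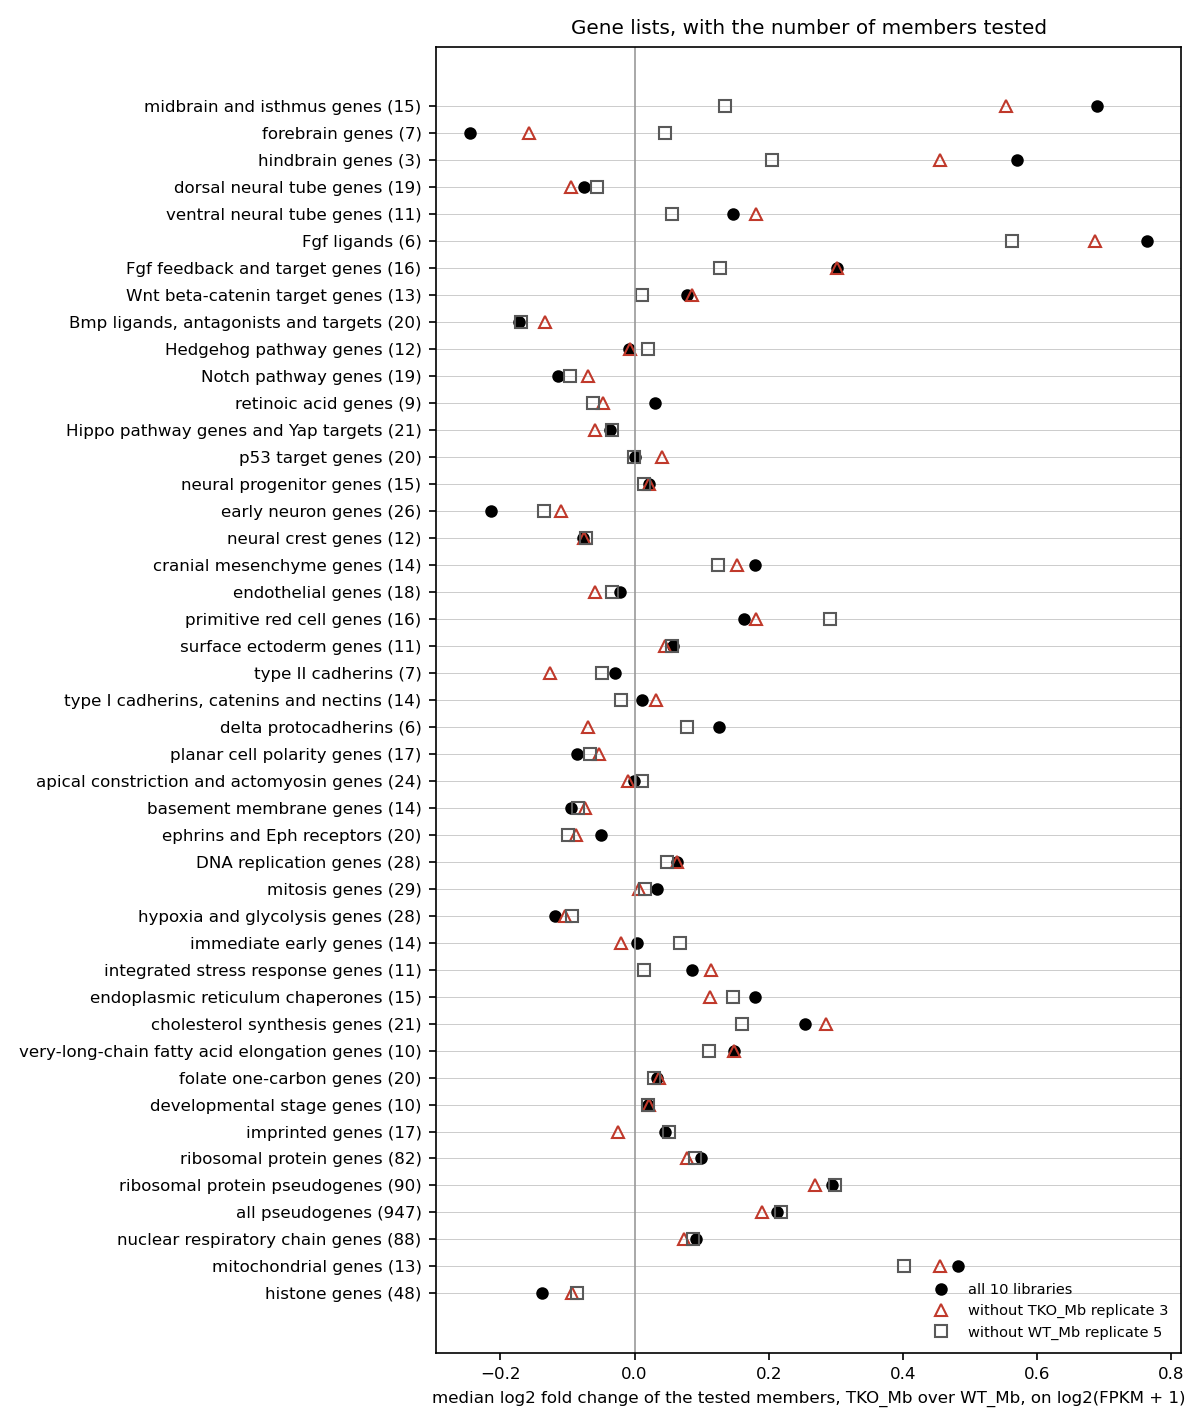
The median log2 fold change of TKO over WT on log2(FPKM + 1) is plotted for each gene list with at least 3 members tested, with the number tested in brackets. Filled circles use all 10 libraries, triangles leave out TKO replicate 3 and squares leave out WT replicate 5. The mitochondrial genes lie at 0.40 or above in all 3, whereas the Mb and isthmus genes move from 0.69 to 0.13 without WT replicate 5.

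Cell type lists were compared next. Neural progenitor genes, with Sox2 as their anchor, had 0 of 15 higher or lower, and Sox2 was at 115 to 136 FPKM in WT and 119, 127, 137 and 139 FPKM in TKO. Early neuron genes had 0 of 26 higher and 3 lower (11.5%, beside 3.20% of all genes), with a median of -0.21. Nsg2, a vesicle protein of neurons, was at 15.3 to 25.3 FPKM in WT and 8.19, 9.16, 13.3 and 16.6 FPKM in TKO (-0.72, adjusted p = 0.291), while Stmn3 and Stmn2, regulators of microtubules, had -0.85 and -0.52. Without TKO replicate 3, 1 of the 26 was lower and the median was -0.11. Without WT replicate 5, 1 was lower and the median was -0.14. Tubb3 was not analysed here. Summed over the list, neuron genes reached 213 to 438 FPKM in WT and 214, 278, 228 and 403 FPKM in TKO, so the groups overlapped.

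Markers of the surrounding tissues were detected in both groups. Cranial mesenchyme genes had 2 of 14 higher (14.3%, beside 5.18% of all genes) and 0 lower. The count was 1 of 15 without TKO replicate 3 and 1 without WT replicate 5. Twist2 was at 1.39 to 5.94 FPKM in WT and 4.81, 6.35, 6.99 and 5.80 FPKM in TKO (0.90, adjusted p = 0.318), Prrx1 had 0.47 (adjusted p = 0.572) and Twist1 0.00. Summed over the list, mesenchyme genes reached 135 to 265 FPKM in WT and 178 to 238 FPKM in TKO. Neural crest genes had 1 of 12 higher, Sox9 (0.47, adjusted p = 0.302), while Sox10 was at 0.311 to 3.27 FPKM in WT and 1.12, 2.05, 1.40 and 2.66 FPKM in TKO. Endothelial genes had 0 of 18, surface ectoderm genes 0 of 11, and macrophage genes had none at a mean of 1 FPKM. Red cell genes had 1 of 16 higher, the globin Hba-a2 (0.98, adjusted p = 0.500), and summed to 5544 to 23986 FPKM in WT and 13892 to 21795 FPKM in TKO. The embryonic globin Hbb-y ranged from 1629 to 9048 FPKM in WT, a wider spread than between the groups. Of 10 muscle precursor genes only Tbx1 was tested (0.73, adjusted p = 0.493).

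**Figure D5:**
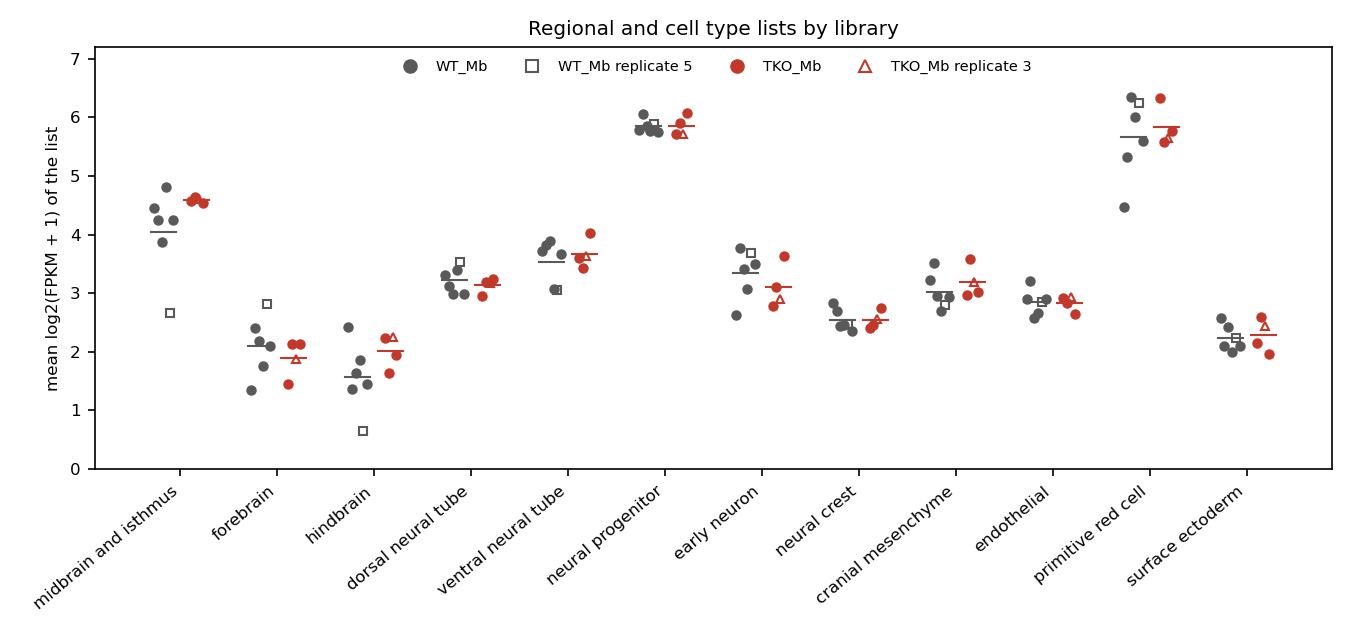
The mean log2(FPKM + 1) of the tested members of 12 regional and cell type lists is plotted for each library, in grey for WT (n = 6) and red for TKO (n = 4), with lines at group means. The groups overlap in every list. WT replicate 5, the open square, has the lowest Mb and isthmus mean (2.66) and the highest forebrain mean (2.81).

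Adhesion and morphogenesis genes were counted because closure of the tube needs them. Type I cadherins, catenins and nectins had 0 of 14 higher and 1 lower, Nectin2 (-0.32, adjusted p = 0.562). Delta protocadherins had 0 of 6 in either direction. Planar cell polarity genes had 0 of 17 higher and 1 lower, the core component Vangl2, at 28.7 to 36.3 FPKM in WT and 27.1, 25.6, 25.3 and 29.9 FPKM in TKO (-0.26, adjusted p = 0.535). No gene of that list was lower without TKO replicate 3, where Vangl2 had an unadjusted limma p of 0.0701. Its p without WT replicate 5 was 0.0525 by limma. Among 24 genes of apical constriction and actomyosin, the myosin light chain Myl12a was higher (0.27, adjusted p = 0.435) and Shroom3, an actin-binding protein of apical junctions, was lower without overlap, at 13.7 to 16.7 FPKM in WT and 12.4 to 13.6 FPKM in TKO (-0.22, adjusted p = 0.579). Leaving out TKO replicate 3 or WT replicate 5 left 0 genes of this list lower, with Shroom3 at unadjusted limma p-values of 0.0814 and 0.0564. Basement membrane genes had 1 of 14 lower, the laminin Lamb2 (-0.46, adjusted p = 0.493). Ephrins and Eph receptors had 3 of 20 lower (15%, beside 3.20% of all genes) and 0 higher, and 2 lower without TKO replicate 3 or without WT replicate 5. Of these, Epha8 was at 1.61 to 5.65 FPKM in WT and 0.411, 0.749, 0.874 and 1.83 FPKM in TKO (-1.04, adjusted p = 0.416), Epha7 had -0.78 and Ephb4 -0.25. Epha7 was at 27.7 FPKM in WT replicate 5, and its value without that library was -0.54.

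Among cell processes, DNA replication genes had 1 of 28 higher, Mcm3 of the replicative helicase (0.35, adjusted p = 0.463). The median log2 fold change of the 28 was 0.06, beside 0.02 for all genes. Mitosis genes had 0 of 29, and 2 higher without TKO replicate 3, and the proliferation marker Mki67 was at 42.6 to 48.5 FPKM in WT and 47.6, 50, 50.1 and 51.6 FPKM in TKO (0.14, adjusted p = 0.630). Cholesterol synthesis genes had a median of 0.25 over 21 genes, beside 0.02 for all genes. The mean log2(FPKM + 1) of the list was 4.31 to 5.15 in WT and 4.79 to 5.44 in TKO, so the groups overlapped. In this list 1 gene was higher, the desaturase Sc5d (0.49, adjusted p = 0.586). Sc5d was at 30.1 FPKM in TKO replicate 1 and 13.4 to 15.2 FPKM in the other TKO libraries. The count of the list was 3 higher and 0 lower without TKO replicate 3, and 0 higher and 1 lower without WT replicate 5. Endoplasmic reticulum chaperones had 4 of 15 higher (26.7%, beside 5.18% of all genes) and 0 lower. That count was 1 of 15 without TKO replicate 3 and 2 higher without WT replicate 5. Calr, a calcium-binding chaperone, was at 303 to 391 FPKM in WT and 396, 388, 416 and 408 FPKM in TKO (0.25, adjusted p = 0.463). Glycolysis and hypoxia genes had 0 of 28 higher and 2 lower (7.14%), Bnip3 (-1.03, adjusted p = 0.541) and Aldoa (-0.27, adjusted p = 0.580). They had 0 and 0 without TKO replicate 3 or without WT replicate 5. Folate genes had 1 of 20 higher, imprinted genes 1 higher and 1 lower of 17, stress response genes 1 of 11 higher, the factor Atf4, and immediate early genes and stage genes 0 of 14 and 0 of 10.

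Beyond the lists, the protein-coding genes with the lowest p below WT were led by Gsta4, a glutathione transferase that clears lipid aldehydes, at 61.1 to 87.7 FPKM in WT and 53.1, 37.0, 32.8 and 33.0 FPKM in TKO (log2 fold change -0.91, adjusted p = 0.0544). Pttg1, the securin that holds back sister separation, was at 69.6 to 120.3 FPKM in WT and 27.1, 31.9, 29.7 and 70.4 FPKM in TKO (-1.30, adjusted p = 0.117). Hsdl1, Tada1, Smyd2, Lysmd2 and Nenf had log2 fold changes from -0.93 to -0.65. Zfp423, a zinc finger factor of midline development, was at 21.6 to 36.4 FPKM in WT and 15.5, 16.2, 19.2 and 20.3 FPKM in TKO (-0.70, adjusted p = 0.152). On the higher side, Prrg2 was at 2.03 to 7.07 FPKM in WT and 9.38, 9.80, 11.4 and 18.5 FPKM in TKO (1.56, adjusted p = 0.0783). Tpm4, a tropomyosin of the actin skeleton, was at 141 to 172 FPKM in WT and 207, 229, 194 and 229 FPKM in TKO (0.49, adjusted p = 0.0799). Lpar2, a receptor for lysophosphatidic acid, had 0.72 and 4833420G17Rik 1.06, both with an adjusted p of 0.0993. Hsdl1, Zfp423, Tpm4 and Lpar2 lie on chromosome 8. Zfp423 is within 20 Mb of both Cdh8 and Cdh11, and Hsdl1 within 20 Mb of Cdh11. Tada1, Smyd2 and Nenf lie on chromosome 1, and the others on further chromosomes. The part of linkage in these values was not tested. None of the genes in this paragraph passed the adjusted threshold.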

How the data were processed

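RNA of E9.5 Mb was sequenced from directional libraries, 6 WT and 4 TKO. As the paper's methods and the submitters' processing notes state, the authors used TopHat2 with the GRCm38 genome for alignment and Cufflinks for the deposited gene-level FPKM. Versions and the annotation are not given in the sources used here. Read counts from HTSeq entered the authors' own DESeq2 test but no part of this work.

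FPKM of 65 repeated identifiers were summed, and 48218 of 48576 identifiers were found in GENCODE M21. The depth was estimated from 771 single-transcript genes of at least 4000 bp, of whose low values 70.95% to 75.3% per library lay within 0.05 of a whole number of fragments, so the estimate is approximate and no count test was run. Groups follow the sample labels. log2(FPKM + 1) was compared with limma 3.58.1 in R 4.3.3 (lmFit, eBayes with a mean-variance trend) for genes of mean at least 1 FPKM, with no covariate and no further scaling. The fit was tested on simulated data. Pseudogenes were aligned to protein-coding GENCODE transcripts with BLAST 2.17.0, and the best match over at least 50% of the pseudogene was kept as the closest gene. Summaries used Python 3.11.15. Tubb3 and other genes with no row were not analysed here, and some named or listed genes are not reported here.

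Named genes were the 3 targeted genes, genes past the adjusted threshold (at most 15), the 10 protein-coding genes of lowest p in each direction, at most 2 members of each list at an unadjusted p under 0.05 with the same direction without TKO replicate 3, and a set of anchors. Closest genes of pseudogenes, the other mitochondrial genes, Stmn2, Ephb4, Cdh5, Cdh20, Pde4d, Gm10774, Gm45823, Gm28661, Gm28439, Rpl3-ps1, Gm26825, Gm14017, 1810041H14Rik and genes given for WT replicate 5 were added after values were seen. The members, lists and tests were chosen with earlier results of these data known. The 22 alternatives were other filters, pseudocounts, scalings, covariates and left-out libraries.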

Additional observations from a re-analysis of the deposited data

Results flagged for a closer look

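Of 278 sets of values (a gene or list mean in 1 group of libraries), 24 held a library set apart from the others of its group by Dixon's test at the 95% level, where chance gives about 1 in 20. The causes were not tested.

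In TKO, replicate 3 was apart for Cdh6 (3.10 FPKM, the next library at 0.388), AC149090.1 (11.9, next 4.10) and Fgf17 (17.0, next 19). Its mean log2(FPKM + 1) was also apart for type II cadherins (2.40, next 2.19), delta protocadherins (3.16, next 2.56) and histone genes (2.23, next 2.71). TKO replicate 4 was apart for Rps3a3 (678 FPKM, next 548), Gm13340 (39.8, next 44.8) and Pttg1 (70.4, next 31.9), and for the mean of sex-linked markers (2.53, next 1.37). TKO replicate 1 was apart for mt-Nd4l (1893 FPKM, next 2165), Hba-a2 (1429, next 691) and Sc5d (30.1, next 15.2). TKO replicate 2 was apart for Prrx1 (9.09 FPKM, next 5.87) and for the mean of type I cadherins, catenins and nectins (4.10, next 3.96).

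In WT, replicate 1 was apart for Rpl19-ps1 (48.6 FPKM, next 36.8), Gm15464 (174, next 122), Usp50 (62.4, next 45.3), mt-Co2 (5131, next 4517) and Pdia6 (197, next 173), in each case on the side of TKO. WT replicate 5 was apart for mt-Nd4l (1086 FPKM, next 1425) and for the mean of Fgf ligands (1.55, next 2.86). WT replicate 3 was apart for Prrg2 (7.07 FPKM, next 3.35) and WT replicate 2 for Twist2 (5.94, next 2.80).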

How the results depend on the processing

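The 12 genes called became 6 with no filter on low values, 3 without the mean-variance trend and 4 with protein-coding genes alone, all of them higher. Leaving out 1 library gave 4 to 52 genes, 3 to 43 of them higher and 0 to 9 lower. 1 gene was called lower with Xist as a covariate, with at least 1 FPKM required in every library, with quantile normalization, and without TKO replicate 3 and WT replicate 5 together. Under quantile normalization 7 of the 13 mitochondrial genes were higher. Rps3a3 stayed past the threshold in 20 of 21 alternatives, Tecr in 17 of 21, mt-Atp8 in 10 of 22 and mt-Nd1 in 9 of 22.

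Same-numbered libraries came from different embryos, and their deviations correlated by -0.0401 to 0.0331, so the numbers do not pair the samples. With the replicate block 0 genes were called by limma, and 432 were higher and 450 lower at an unadjusted p under 0.05.

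Fold changes near 0 turned sign. The log2 fold change of Wnt1 was -0.0128 with the Xist covariate, -0.0129 with median-of-ratios scaling, -0.0906 with the block and -0.155 to 0.102 with libraries left out. The log2 fold change of Twist1 was -0.0159 with median-of-ratios scaling, -0.00143 with a pseudocount of 5, -0.00824 with quantile normalization, -0.127 with the block and -0.0762 to 0.0900 with libraries left out. With libraries left out, the log2 fold change of Wnt3a was -0.0116 to 0.278, the log2 fold change of Shh -0.0856 to 0.387, the log2 fold change of Pecam1 -0.315 to 0.023 and the log2 fold change of Hbb-y -0.0226 to 0.472. Under quantile normalization the log2 fold change of Sox2 was -0.0138 and that of Hbb-y -0.00307. The causes were not tested. FPKM without counts gives no error of counting, and low genes are limited by the depth.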

Other observations

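Within WT, cholesterol synthesis genes differed between libraries by more than the group means did. The mean log2(FPKM + 1) of the list was 4.98 to 5.15 in WT replicates 1 to 3, those with Y-linked RNA. It was 4.31 to 4.48 in WT replicates 4 to 6, those without, and 5.44, 4.79, 4.85 and 4.95 in TKO. The part of this split within WT in the comparison of the groups was not tested. Hmgcs1, which makes the precursor of mevalonate, was at 66.6 to 155 FPKM in WT and at 174, 112, 99.9 and 128 FPKM in TKO. Nsdhl, a later enzyme of the pathway, was at 6.16 to 24.7 FPKM in WT and 33.6, 18.4, 19.6 and 24.7 FPKM in TKO. For both genes TKO replicate 1 held the highest value of all 10 libraries. These genes were named after their values were seen.

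Gm12013 was listed at 0 in TKO replicates 1, 2 and 4 and at 281 FPKM in replicate 3, and it ranged from 0 to 183 FPKM in WT with a median of 135 FPKM.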
